A study of Mus musculus with 15 samples.

Results

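The genes described here are 10 that encode inhibitors of mTORC1 signalling or of cap-dependent translation, together with a Rag GTPase of the same pathway, out of 55416 genes counted in each library. They were chosen by name as Eif4ebp1, Eif4ebp2, Ddit4, Ddit4l, Sesn1, Sesn2, Sesn3, Deptor, Akt1s1 and Rragd. Each name matched 1 gene identifier, and all 10 passed the filter on low counts. RNA of 15 libraries was sequenced from the tibialis anterior, the shin muscle that lifts the foot. The mice were male C57BL/6 (C57BL/6NCrlOri), 6 to 8 weeks old. The control group (n = 5) received no tumour cells. The other groups received KrasIKKaL tumour cells by the intratracheal route and then, by intraperitoneal injection, an isotype IgG (rat IgG2b, n = 4), an anti-PD-L1 antibody (200 μg/kg, 3 times a week, n = 3) or an anti-CD8a antibody (200 μg, 3 times a week, n = 3). The labels name no antibody for the control group, so IgG against control compares tumour and IgG together with neither. The labels tag the isotype group as anti-IgG, and they do not say whether each library came from a different mouse. The p-values therefore measure the spread between these libraries.

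mTORC1 is a kinase complex at the lysosome surface that promotes protein synthesis when amino acids, energy and growth factors are plentiful, and skeletal muscle mass depends on it. Its best known route to translation is phosphorylation of the 4E-BP proteins, which in their unphosphorylated form hold the cap-binding protein eIF4E away from the eIF4G scaffold. REDD proteins (Ddit4 and Ddit4l) act upstream through the TSC complex, sestrins act on the GATOR amino acid sensing complexes, and Deptor and PRAS40 (the product of Akt1s1) bind the kinase complex itself. RagD (Rragd) differs from the others in kind, since Rag GTPases bring mTORC1 to the lysosome and are needed for its activation by amino acids. RNA levels do not report the phosphorylation that controls several of these proteins.

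Eif4ebp1 and Eif4ebp2 share the short stretch that contacts eIF4E, shown here because the 2 genes encode the same contact and differed in response. The sequences are coding DNA from the GENCODE M21 annotation of GRCm38, 5′ to 3′, with the codons of the eIF4E-binding motif in capitals. The first codon in capitals is that of residue 53 of the Eif4ebp1 product and of residue 54 of the Eif4ebp2 product.
Eif4ebp1: atcTATGACCGGAAATTTCTGATGgag
Eif4ebp2: attTATGACCGAAAGTTTCTGTTGgac
Of the 21 bases in capitals 18 were identical, and of the 7 residues they encode 6 were identical. Eif4ebp1 lies on the plus strand of chromosome 8 (27260329 to 27276674) and Eif4ebp2 on the minus strand of chromosome 10 (61428491 to 61452661) in that annotation. The build the counts were made on is not given in the sources used here, so these positions locate the genes and were not used in counting.

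Upstream sequence is shown for the REDD pair, which went in opposite directions, and for Sesn1, which had the largest fold change of the 10. Each is the part of the 250 bases before a RefSeq start site (GRCm38.p6) that lies outside annotated exons. The Ddit4 window is chr10:59951835-59952020 on the minus strand, the Ddit4l window is chr3:137623422-137623671 on the plus strand, and the Sesn1 window is chr10:41887189-41887438 on the plus strand, before the downstream of 2 start sites.
Ddit4: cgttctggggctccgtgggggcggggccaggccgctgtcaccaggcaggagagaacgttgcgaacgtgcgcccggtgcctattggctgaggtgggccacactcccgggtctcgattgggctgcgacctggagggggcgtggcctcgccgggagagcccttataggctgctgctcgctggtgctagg
Ddit4l: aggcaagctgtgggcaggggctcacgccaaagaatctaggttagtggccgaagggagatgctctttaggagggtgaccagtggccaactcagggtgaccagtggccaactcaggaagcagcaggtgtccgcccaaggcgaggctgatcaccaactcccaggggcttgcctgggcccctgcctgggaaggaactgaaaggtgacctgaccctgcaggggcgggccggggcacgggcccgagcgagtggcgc
Sesn1: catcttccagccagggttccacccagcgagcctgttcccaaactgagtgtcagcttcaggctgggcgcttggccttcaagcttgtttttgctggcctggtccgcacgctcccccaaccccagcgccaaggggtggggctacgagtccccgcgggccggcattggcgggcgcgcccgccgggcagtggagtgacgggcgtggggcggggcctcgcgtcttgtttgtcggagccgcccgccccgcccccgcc
RefSeq promoter entries matched 8 of the 10 genes, in 9 windows. The full 250 bases of each were searched on both strands for TGTTTAC (FoxO type), TGATGNAA (ATF4 type) and CACGTG (E-box), and for the palindromic glucocorticoid receptor type motif. None of the 9 windows held any of them. Among 32851 windows of the same length, 3.17%, 3.45%, 6.02% and 0.00913% held them, in that order. The absence of these letters from these windows says nothing about binding of the factors.

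In tumour-bearing mice given IgG, 5 of the 10 genes were higher than in controls without a tumour and 3 were lower, at an adjusted p under 0.05 (edgeR's quasi-likelihood test with Benjamini-Hochberg adjustment over 14372 genes). Eif4ebp1, Ddit4, Sesn1, Sesn2 and Akt1s1 rose, Ddit4l, Deptor and Rragd fell, and Eif4ebp2 and Sesn3 did not pass. This comparison called 58.5% of all genes tested, 30.2% higher and 28.4% lower, so 8 of 10 is to be read against a muscle in which most genes differed. The median log2 fold change of the 10 was 0.49, beside -0.02 over all genes tested. Levels below are TMM-normalised CPM (counts relative to an adjusted library total), and fold changes are on the log2 scale with their standard error. Whether ranges overlap is given as a description, with no share over all genes beside it. It adds no support to the test on the same libraries.

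**Figure D1:**
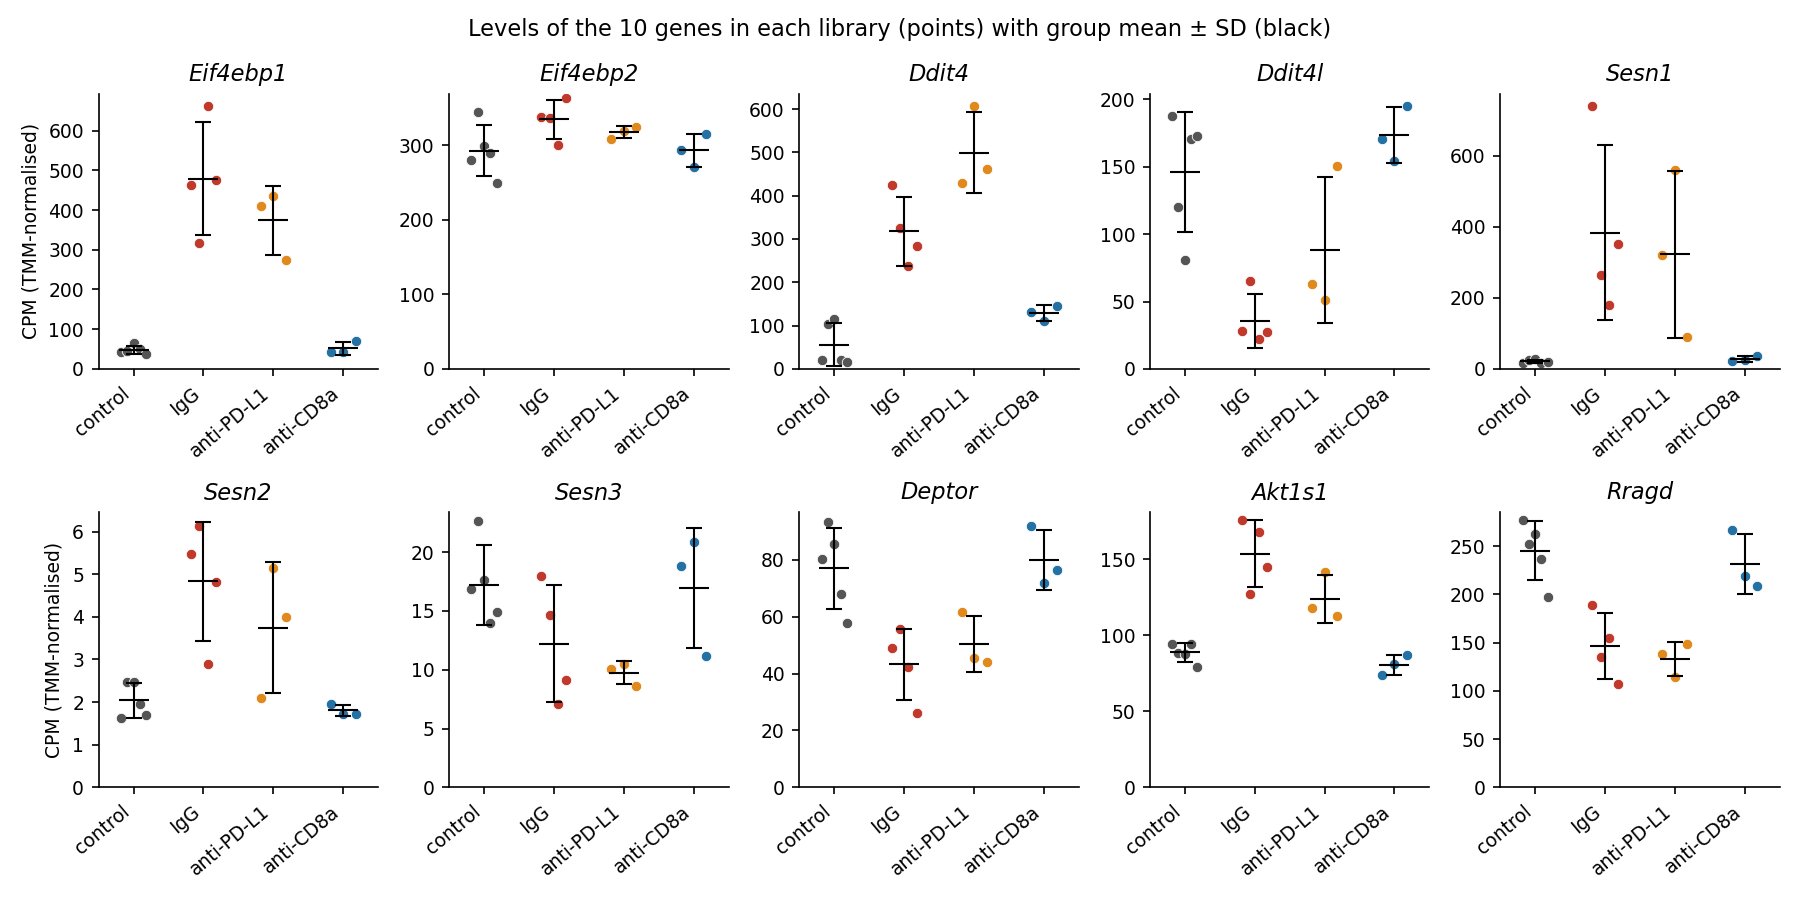
Level of each of the 10 genes in every library (points, vertical axis in CPM from 0, a scale of its own in each panel), by group, with the group mean and SD in black. Eif4ebp1 and Sesn1 sit low in all control and anti-CD8a libraries and high in the IgG and anti-PD-L1 libraries, Ddit4l, Deptor and Rragd take the opposite order in control and IgG, and Eif4ebp2 lies between 249.8 and 364 CPM in all 15 libraries.

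Among the translation repressors, Eif4ebp1 (4E-BP1) stood at 43.7, 44.2, 64.1, 51.3 and 38.0 CPM in the 5 control libraries and at 463, 316, 662 and 476 CPM in the 4 IgG libraries. The lowest IgG library was above the highest control. The log2 difference was 3.31 ± 0.24 (adjusted p = 4.11e-07), a 9.93-fold rise. Eif4ebp2 (4E-BP2), its paralog, was at 280, 345, 300, 291 and 250 CPM in controls and at 339, 337, 300.3 and 364 CPM with IgG. Those ranges overlapped, and the log2 difference of 0.19 ± 0.11 did not pass (adjusted p = 0.159) and was -0.06 with upper-quartile normalization.

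Per transcript length, the summed RNA of Eif4ebp1 and Eif4ebp2 changed in make-up. On the deposited TPM scale (a share of transcripts corrected for length, which allows levels of different genes to be set side by side), Eif4ebp1 was 33.2 ± 6.07 in controls and 369 ± 93.8 with IgG, while Eif4ebp2 was 47.4 ± 6.12 and 63.1 ± 10.9 (SD, n = 5 and n = 4). Eif4ebp1 made up 41.1 ± 4.64% of the summed TPM of both genes in controls and 84.8 ± 4.41% with IgG. The share was 82.6 ± 3.22% with anti-PD-L1 and 41.4 ± 5.99% with anti-CD8a (n = 3 each). Eif4e, the target of both proteins, was at 47.3 ± 10.5 TPM in controls and 43.5 ± 7.27 TPM with IgG. With anti-PD-L1 it was at 48.95 ± 7.49 TPM and with anti-CD8a at 41.3 ± 3.90 TPM. In the test on counts Eif4e fell by 0.32 ± 0.12 with IgG against control (adjusted p = 0.0349) and by 0.45 ± 0.13 with anti-PD-L1 against control (adjusted p = 0.0164), and rose by 0.35 ± 0.14 with anti-CD8a against IgG (adjusted p = 0.0454). Mean Eif4e TPM went the other way for anti-PD-L1 against control and for anti-CD8a against IgG. The ratio of summed Eif4ebp1 and Eif4ebp2 TPM to Eif4e TPM was 1.78 ± 0.48 in controls, 10.1 ± 2.83 with IgG, 8.17 ± 2.11 with anti-PD-L1 and 2.08 ± 0.56 with anti-CD8a. These shares and ratios are given as descriptions, with no test. The TPM of Eif4ebp1 takes in a noncoding transcript as well as the coding one. Eif4ebp3, the third gene of the family, was left out (1.33 ± 0.84 TPM in controls, 5.02 ± 5.70 with IgG).

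**Figure D2:**
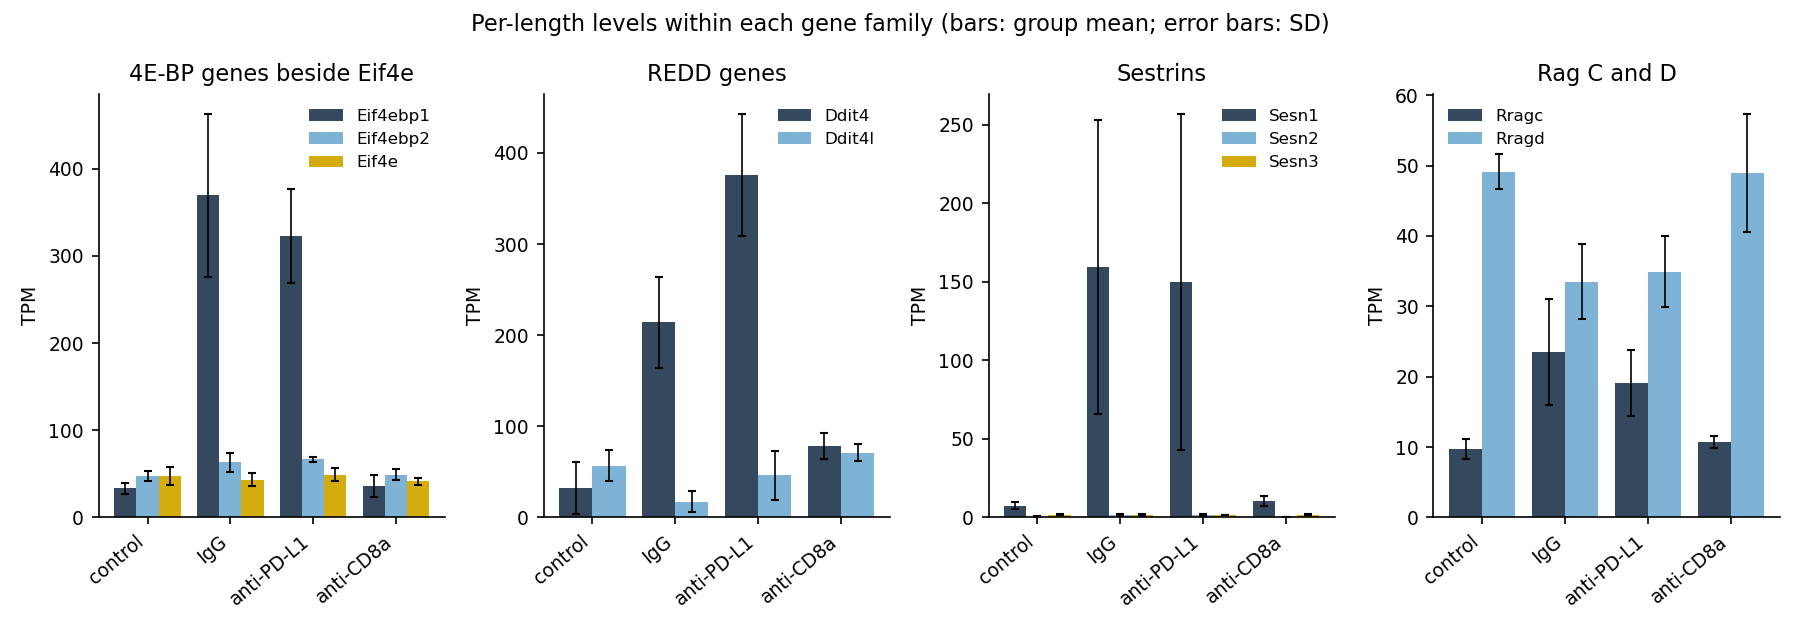
Deposited TPM of related genes by group (bars show the group mean, error bars the SD, axes from 0): the 4E-BP genes with Eif4e, the REDD genes, the sestrins, and the genes of RagC and RagD. Eif4ebp1 is below Eif4ebp2 in control and anti-CD8a and far above it in the other 2 groups, and Ddit4 is below Ddit4l in controls and above it with IgG.

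The REDD genes, whose products restrain mTORC1 through the TSC complex, went in opposite directions. Ddit4 (REDD1), a stress and glucocorticoid responsive gene, was at 20.97, 105, 115, 21.3 and 15.9 CPM in controls and at 424, 325, 237.8 and 284.1 CPM with IgG. Control libraries 2 and 3 were several times higher than the other 3, yet all controls were below all IgG libraries, and the log2 difference was 2.52 ± 0.50 (adjusted p = 0.000475). Ddit4l (REDD2), the paralog enriched in muscle, was at 187, 120.0, 80.6, 170.5 and 173 CPM in controls and at 28.1, 65.2, 21.9 and 27.3 CPM with IgG. Its ranges did not overlap either, and it fell by 2.04 ± 0.37 (adjusted p = 0.000223). Control libraries 2 and 3 held the highest Ddit4 and the lowest Ddit4l of the group. The split was not confined to these genes. Over the genes tested, the chi-square of paired counts over its degrees of freedom (lower is closer) was 16.4 for libraries 2 and 3. It was 39.9 to 65.9 between either of them and libraries 1, 4 and 5, and 21.1 to 28 among those last. On the TPM scale Ddit4 was 33.1 ± 26.0% of the REDD pair in controls and 92.5 ± 3.88% with IgG.

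**Figure D3:**
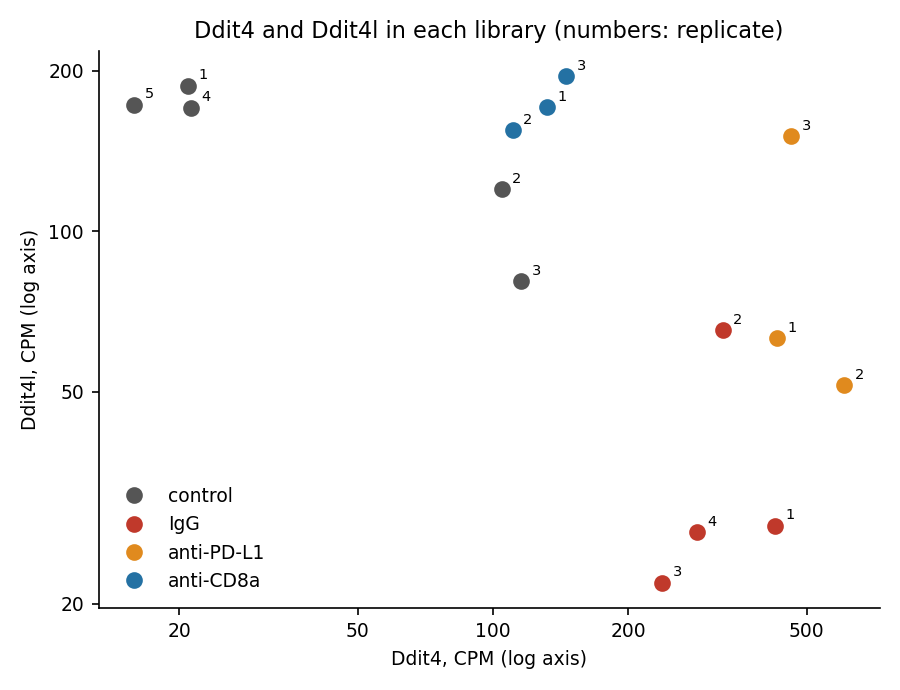
Ddit4 (horizontal) against Ddit4l (vertical) in each library, both in CPM on log axes, coloured by group and numbered by replicate. Control libraries 1, 4 and 5 lie at the upper left, the IgG libraries lie at the lower right, and control libraries 2 and 3 lie nearer the anti-CD8a libraries, which had 110.6 to 145.5 CPM of Ddit4.

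Sesn1 rose most of the 10. It was at 17.2, 24.1, 27.7, 16.5 and 20.9 CPM in controls and between 180 and 740 CPM with IgG, with a median of 308 CPM. The IgG libraries spread widely among themselves, and all were above every control. The log2 difference was 4.17 ± 0.46 (adjusted p = 3.35e-06), an 18.1-fold rise. Sesn2, a sestrin known as a leucine sensor, was far scarcer at 2.04 ± 0.41 CPM in controls and 4.83 ± 1.40 CPM with IgG. It rose by 1.24 ± 0.27 on the log2 scale (adjusted p = 0.000875). Sesn3 was at 17.2 ± 3.37 CPM in controls and 12.2 ± 4.98 CPM with IgG, with a log2 difference of -0.49 ± 0.25 that did not pass (adjusted p = 0.0979). Without IgG replicate 1 the adjusted p of Sesn3 was 0.0166. Sesn1 made up 76.1 ± 2.94% of sestrin TPM in controls and 97.9 ± 0.84% with IgG.

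Sesn1 has 2 long coding transcripts in the annotation, of 2600 bases from the downstream start site shown above and of 3809 bases from the upstream one. The mean length that RSEM assigned to Sesn1, weighted by abundance, was 2766 ± 57.7 bases in controls and 2692 ± 28.6 with IgG. Both values lie nearer the shorter form. For Eif4ebp1 the assigned length was 1508 ± 42.3 bases in controls and 1550 ± 28.4 with IgG, between its 1997-base coding and 798-base noncoding transcripts. These lengths are estimates from short reads and were not tested.

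The genes of the proteins that bind mTORC1 directly split. Akt1s1 (PRAS40) was at 94.5, 88.0, 87.9, 94.4 and 79.3 CPM in controls and at 176, 127, 168 and 145 CPM with IgG, groups that did not overlap, and rose by 0.79 ± 0.12 (adjusted p = 4.95e-05). Deptor, which binds mTOR in both of its complexes, was at 80.2, 93.4, 85.6, 67.8 and 57.6 CPM in controls and at 48.8, 55.5, 42.4 and 26.3 CPM with IgG. Its highest IgG library was just under its lowest control, and it fell by 0.83 ± 0.20 (adjusted p = 0.00211). Rragd was at 277, 253, 262.6, 237 and 198 CPM in controls and at 189, 135, 155.0 and 107 CPM with IgG. Its ranges did not overlap, and it fell by 0.74 ± 0.16 (adjusted p = 0.00106). Rragc, which encodes the interchangeable partner RagC, rose by 1.02 ± 0.19 (adjusted p = 0.000313), and Rragd went from 83.5 ± 2.17% to 59.4 ± 8.97% of the TPM of the pair.

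Anti-CD8a against IgG compares 2 tumour-bearing groups. Here 4 of the 10 genes were lower and 3 were higher, where 48% of all genes tested were called, 24.8% lower and 23.2% higher. Eif4ebp1, Sesn1, Sesn2 and Akt1s1 fell, and Ddit4l, Deptor and Rragd rose. The median log2 fold change of the 10 was -0.56, beside 0.02 over all genes tested. This comparison shares its IgG libraries with IgG against control, so opposite signs in the 2 are not independent of each other.

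With anti-CD8a, Eif4ebp1 was at 41.8, 43.0 and 69.7 CPM, all below the lowest IgG library, and it fell by 3.22 ± 0.29 (adjusted p = 9.61e-06). Sesn1 was at 22.6, 24.2 and 36.7 CPM and fell by 3.79 ± 0.56 (adjusted p = 9.91e-05), also without overlap. Sesn2 was at 1.96, 1.72 and 1.73 CPM and fell by 1.42 ± 0.31 (adjusted p = 0.00181). Akt1s1 was at 73.7, 80.8 and 86.7 CPM and fell by 0.93 ± 0.14 (adjusted p = 0.000108). Neither Sesn2 nor Akt1s1 overlapped between these groups.

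Ddit4 was at 132, 110.6 and 145.5 CPM with anti-CD8a. That range lies below all IgG libraries, but the log2 difference of -1.30 ± 0.57 did not pass (adjusted p = 0.0709). Ddit4l was at 171, 154 and 195 CPM and rose by 2.28 ± 0.40 (adjusted p = 0.000319). Deptor was at 91.9, 71.8 and 76.2 CPM and rose by 0.89 ± 0.22 (adjusted p = 0.00406), and Rragd was at 267, 219 and 209 CPM and rose by 0.66 ± 0.18 (adjusted p = 0.00738). All 3 genes that rose had ranges apart from those of IgG. Eif4ebp2 differed by -0.19 ± 0.13 (adjusted p = 0.247) and Sesn3 by 0.47 ± 0.28 (adjusted p = 0.171). The spread of each gene was estimated over all 4 groups, and the Ddit4 controls, not part of this comparison, ran from 15.9 to 115 CPM. Ddit4 passed in a fit of the 2 groups alone (adjusted p = 0.00188), and Sesn3 passed without IgG replicate 1 (adjusted p = 0.0357). The fit of 2 groups also changed the filter and the scaling, and what moved the Ddit4 call was not tested.

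**Figure D4:**
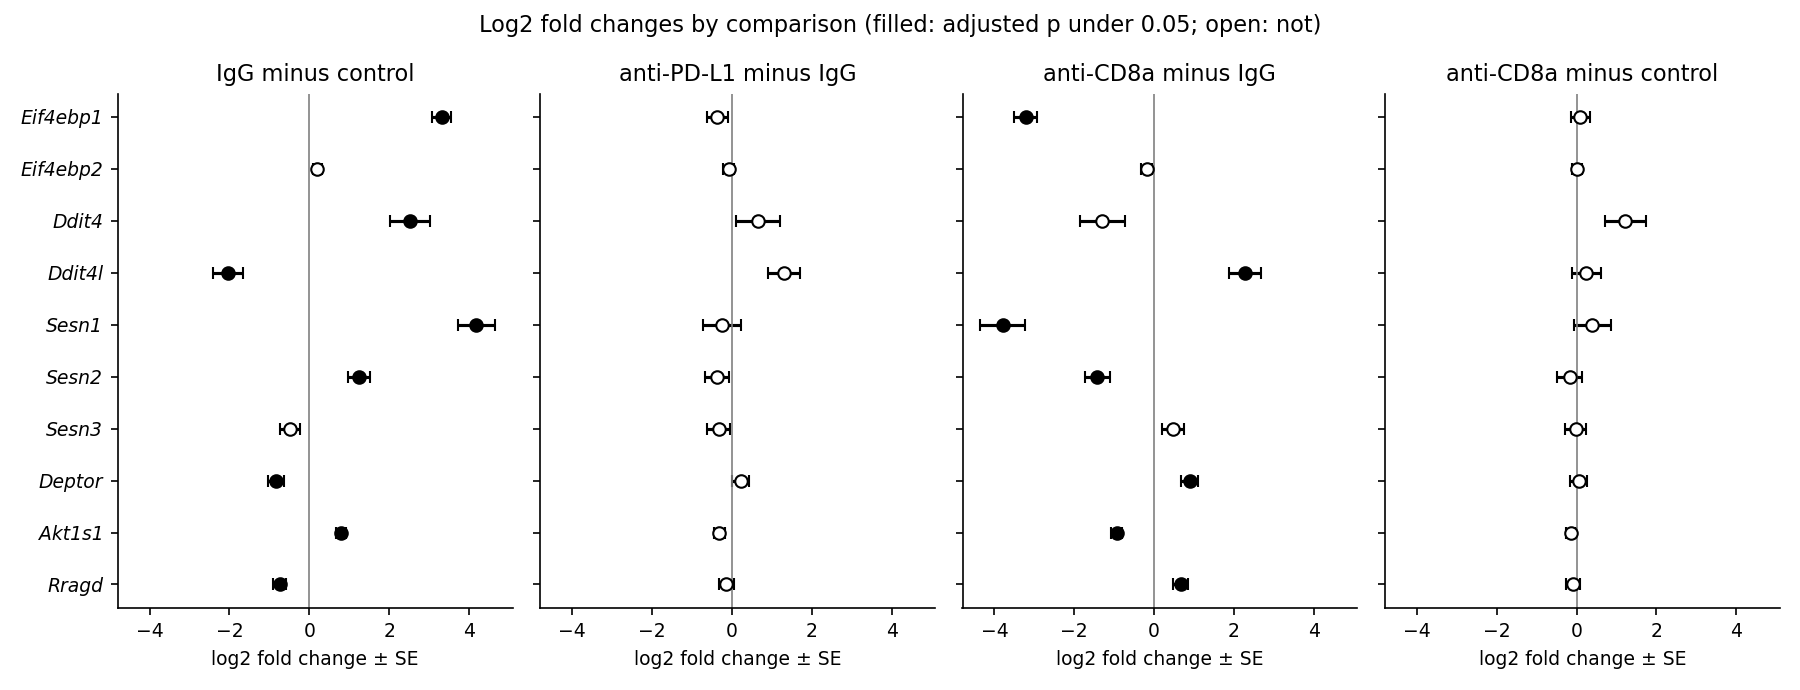
Log2 fold change of each gene (points, bars show the SE) in 4 comparisons, filled where the adjusted p is under 0.05. Filled points number 8 in IgG minus control and 7 in anti-CD8a minus IgG, and all points are open in anti-PD-L1 minus IgG and in anti-CD8a minus control.

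Set against controls without a tumour, anti-CD8a gave 0 of 10 called by edgeR, with 1 at an unadjusted p under 0.05 and 0 called by DESeq2. This comparison called 0.0139% of all genes (0.00696% higher, 0.00696% lower). Eif4ebp1 differed by 0.09 ± 0.24 and Sesn1 by 0.39 ± 0.46 on the log2 scale, and a p that misses the threshold does not show that levels were equal. Ddit4l differed by 0.25 ± 0.37, Sesn2 by -0.18 ± 0.30, Akt1s1 by -0.14 ± 0.13, Rragd by -0.08 ± 0.17, Deptor by 0.06 ± 0.21, Sesn3 by -0.02 ± 0.26 and Eif4ebp2 by 0.00 ± 0.13. Ddit4 had the largest difference, 1.22 ± 0.52 (adjusted p = 0.584), at 129 ± 17.6 CPM with anti-CD8a and 55.6 ± 49.8 CPM in controls. The spread of the controls came from libraries 2 and 3. With those 2 libraries left out, a choice made after their Ddit4 levels had been seen, the Ddit4 difference was 2.74 (adjusted p = 0.000147). Because the libraries were picked on Ddit4 itself, that value describes the split among controls and is not a test of anti-CD8a.

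Anti-PD-L1 against IgG gave 0 of 10 called, where 5.5% of all genes were called (3.96% higher, 1.54% lower). By unadjusted p under 0.05 the count was 2, and by DESeq2 it was 1. Counts under such other settings, above and below, are given without the share over all genes. Without that share, a change in such a count is not told apart here from a change in calls over all genes. Ddit4l was nearest to the threshold, at 63.1, 51.5 and 150.7 CPM with anti-PD-L1 against 21.9 to 65.2 CPM with IgG, a log2 difference of 1.31 ± 0.39 (adjusted p = 0.06). Its anti-PD-L1 replicate 3 and its IgG replicate 2 were the high libraries of their groups. Ddit4l passed without IgG replicate 2 (adjusted p = 0.00672) and without anti-PD-L1 replicate 2 (adjusted p = 0.017), and its difference was 0.69 without anti-PD-L1 replicate 3. Ddit4 was at 430, 606 and 462 CPM, above all IgG libraries, with a log2 difference of 0.65 ± 0.55 (adjusted p = 0.46).

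The remaining genes overlapped between anti-PD-L1 and IgG. Eif4ebp1 was at 410.0, 436 and 275 CPM (log2 difference -0.36 ± 0.26, adjusted p = 0.377). Sesn1 was at 320, 560.0 and 90.2 CPM, the widest spread of the 10 in this group, with a log2 difference of -0.25 ± 0.48 (adjusted p = 0.772). The sign of that Sesn1 difference turned without IgG replicate 1 (0.29) and without anti-PD-L1 replicate 3 (0.20), and its value was -0.90 without anti-PD-L1 replicate 2. Akt1s1 differed by -0.31 ± 0.14 (adjusted p = 0.161), Sesn2 by -0.36 ± 0.29, Sesn3 by -0.33 ± 0.28, Deptor by 0.22 ± 0.22, Rragd by -0.13 ± 0.18 and Eif4ebp2 by -0.08 ± 0.13.

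Anti-PD-L1 against controls called 8 of the 10, with 5 higher and 3 lower, where 34.7% of all genes were called (20.8% higher, 13.9% lower). Sesn1 rose by 3.93 ± 0.47, Ddit4 by 3.17 ± 0.53, Eif4ebp1 by 2.95 ± 0.24, Sesn2 by 0.88 ± 0.28 and Akt1s1 by 0.48 ± 0.13. Rragd fell by 0.88 ± 0.18, Sesn3 by 0.82 ± 0.27 and Deptor by 0.61 ± 0.22. Ddit4l differed by -0.73 ± 0.38 (adjusted p = 0.154) and Eif4ebp2 by 0.12 ± 0.12 (adjusted p = 0.495). Without anti-PD-L1 replicate 2 the Sesn1 difference was 3.27 and the count was 4, with Sesn2 (adjusted p = 0.183), Akt1s1 (0.0729), Deptor (0.145) and Sesn3 (0.0674) no longer called. Sesn2 also missed the threshold without control replicate 1 or 5, Sesn3 without control replicate 2 or anti-PD-L1 replicate 1, Deptor without control replicate 1, 2 or 3, and all of Sesn2, Sesn3 and Deptor without anti-PD-L1 replicate 3. Without that last library Ddit4l differed by -1.35 and passed (adjusted p = 0.0157).

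Anti-PD-L1 against anti-CD8a called 6 of the 10, where 19.7% of all genes were called (12.1% higher, 7.64% lower). Sesn1 was higher by 3.54 ± 0.57, Eif4ebp1 by 2.86 ± 0.29, Ddit4 by 1.95 ± 0.61, Sesn2 by 1.06 ± 0.33 and Akt1s1 by 0.62 ± 0.15, and Rragd fell by 0.79 ± 0.20. Ddit4l differed by -0.97 ± 0.42 (adjusted p = 0.115), Sesn3 by -0.80 ± 0.30 (0.0697), Deptor by -0.67 ± 0.24 (0.0596) and Eif4ebp2 by 0.11 ± 0.14 (0.593). The Sesn1 difference was 2.88 without anti-PD-L1 replicate 2. The count was 2 without anti-PD-L1 replicate 2 and 2 without anti-CD8a replicate 1. Ddit4, Sesn2, Akt1s1 and Rragd were the genes lost in each case (adjusted p of Akt1s1 0.0533 and 0.0612). Ddit4 and Sesn2 missed the threshold with each of the 3 anti-CD8a libraries left out in turn, and Sesn2 also without anti-PD-L1 replicate 3. Ddit4l differed by -1.60 and passed without anti-PD-L1 replicate 3 (adjusted p = 0.0158), Deptor without anti-PD-L1 replicate 1 (0.0423) and Sesn3 without anti-CD8a replicate 3 (0.0306).

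Set in order of mean level, Eif4ebp1 ran from control and anti-CD8a (48.2 ± 10.0 and 51.5 ± 15.8 CPM) to anti-PD-L1 and IgG (374 ± 86.7 and 479 ± 142 CPM), and neither of these pairs passed the test. Sesn1 took the same order (21.3 ± 4.70, 27.8 ± 7.76, 323 ± 235 and 384 ± 247 CPM). Ddit4 ran from control to anti-CD8a, IgG and anti-PD-L1 (55.6 ± 49.8, 129 ± 17.6, 318 ± 79.4 and 499 ± 93.8 CPM), and no neighbouring pair passed in the fit over all 4 groups. For Ddit4, anti-CD8a against IgG passed in a fit of the 2 groups alone (adjusted p = 0.00188). Ddit4l ran from IgG to anti-PD-L1, control and anti-CD8a (35.6 ± 19.9, 88.4 ± 54.2, 146 ± 44.7 and 174 ± 20.6 CPM), and no neighbouring pair passed. The summed TPM of all 10 genes was 297 ± 27.6 in controls, 363 ± 51.5 with anti-CD8a, 990 ± 147 with IgG and 1118 ± 190 with anti-PD-L1. That sum was not tested, and it takes in Rragd and genes that fell. Deposited TPM is not TMM-normalised: Eif4ebp2 was at 47.4 TPM in controls and 66.75 with anti-PD-L1, but at 293 and 318 CPM.

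Of 99 other genes of the pathway, in 9 lists, 97 were tested. With IgG against control 45 were higher and 16 lower, with a median log2 fold change of 0.32. With anti-CD8a against IgG 13 were higher and 41 lower (median -0.28), with anti-PD-L1 against IgG 2 were higher and 3 lower, and with anti-CD8a against control 0 were called. The lists were chosen with earlier results of these data known, and their counts stand beside the background shares above without a test of the lists.

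**Figure D5:**
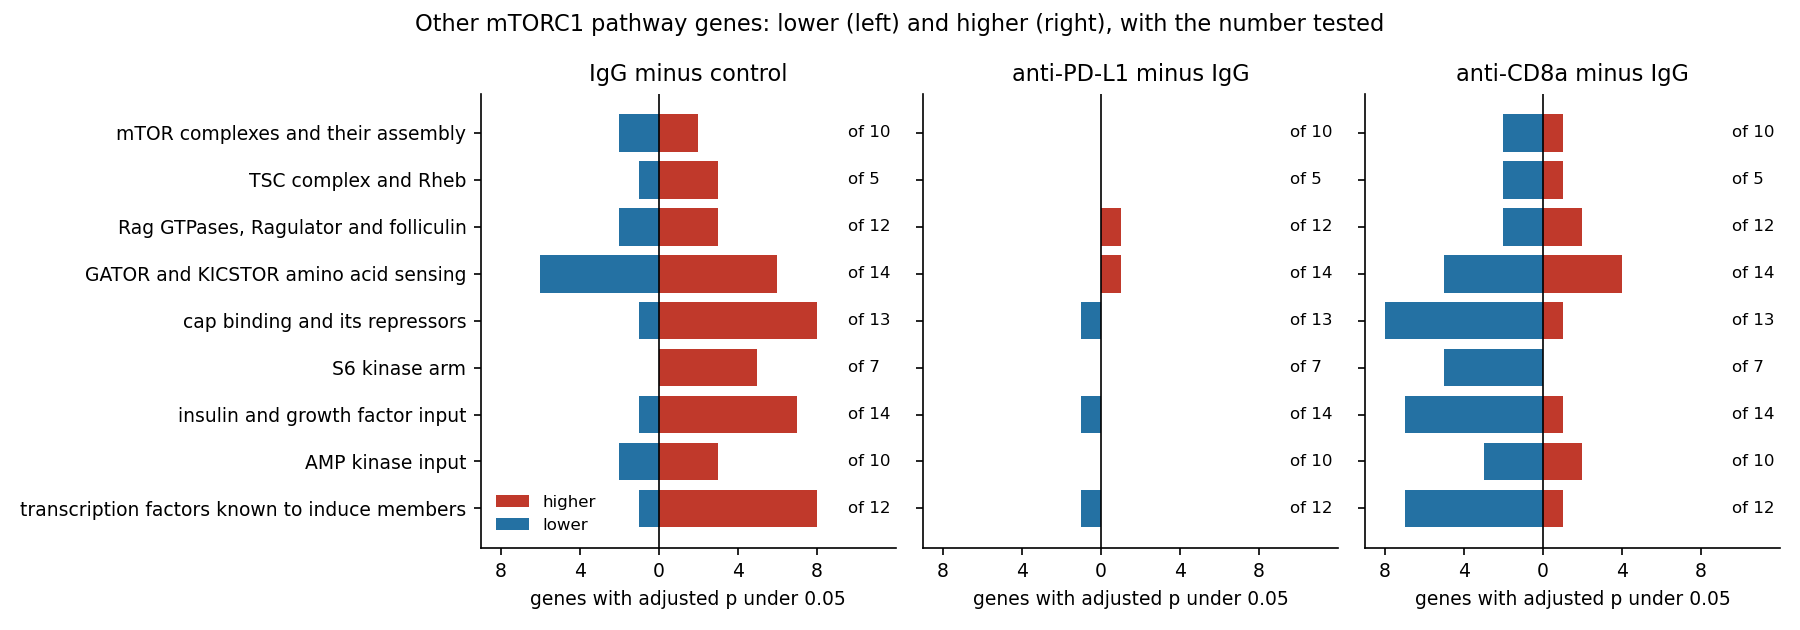
Number of genes of each pathway list that were higher (right) or lower (left) in 3 comparisons at an adjusted p under 0.05, with the number tested at the right of each row. The cap-binding list has 8 of 13 higher in IgG minus control and 8 of 13 lower in anti-CD8a minus IgG, and no list has more than 1 gene called in anti-PD-L1 minus IgG.

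In IgG against control the list of mTOR complexes and their assembly had 2 of 10 higher and 2 lower. The kinase gene Mtor rose by 1.05 ± 0.17 and Tti2, an assembly factor gene, by 0.77 ± 0.16, and Mapkap1 of the other mTOR complex fell by 0.57 ± 0.14. The list of the TSC complex and Rheb had 3 of 5 higher and 1 lower: Rheb, the GTPase that activates mTORC1, rose by 1.01 ± 0.13 and Tsc1 by 0.93 ± 0.17, while Tbc1d7 of the same complex as Tsc1 fell by 0.90 ± 0.20. In the list of Rag GTPases, Ragulator and folliculin 3 of 12 were higher and 2 lower. Of the 5 Ragulator scaffold genes Lamtor4 fell by 0.98 ± 0.15, Lamtor2 fell by 0.70 ± 0.13, Lamtor3 rose by 0.32 ± 0.11, and Lamtor1 (-0.22 ± 0.11) and Lamtor5 (0.21 ± 0.14) did not pass. In the GATOR and KICSTOR list 6 of 14 were higher and 6 lower, and the 3 of largest change fell: Kptn by 1.46 ± 0.23, Castor2 by 0.86 ± 0.23 and Wdr59 by 0.83 ± 0.21.

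On the translation side 8 of 13 genes of the cap-binding list were higher and 1, Eif4e, was lower. The largest changes were those of the helicase gene Eif4a1 (1.83 ± 0.17), its cofactor Eif4b (1.35 ± 0.16) and the scaffold gene Eif4g3 (1.28 ± 0.15). The S6 kinase arm had 5 of 7 higher and 0 lower, with Larp1 at 1.27 ± 0.15, Rps6kb1 at 0.87 ± 0.15 and the elongation factor gene Eef2 at 0.86 ± 0.14. The insulin and growth factor list had 7 of 14 higher and 1 lower, with Pik3r1 at 3.17 ± 0.25, Irs2 at 3.13 ± 0.46 and Akt1 at 2.33 ± 0.23. The AMP kinase list had 3 of 10 higher and 2 lower: Prkag3, a regulatory subunit gene of fast muscle, fell by 2.34 ± 0.44, Prkag2 fell by 1.41 ± 0.27 and Prkab1 rose by 0.98 ± 0.14. Of 12 transcription factors known as inducers of these genes, 8 were higher and 1 lower, with Foxo1 at 2.06 ± 0.49, Klf15 at 2.01 ± 0.35 and Foxo3 at 1.995 ± 0.26.

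With anti-CD8a against IgG, 2 of 10 genes of the mTOR complexes were lower (Mtor, -1.07 ± 0.20, and Tti2, -0.65 ± 0.18) and 1 higher (Tti1, 0.42 ± 0.16). Rheb fell by 1.03 ± 0.16 and Tsc1 by 0.97 ± 0.20, and Tbc1d7 rose by 0.66 ± 0.23. Rragc fell by 1.01 ± 0.22, and Lamtor4 (0.84 ± 0.17) and Lamtor2 (0.80 ± 0.14) rose. In the GATOR and KICSTOR list 4 of 14 were higher and 5 lower, with Kptn at 1.28 ± 0.25, Castor2 at 1.13 ± 0.26 and Wdr24 at 0.75 ± 0.20. The cap-binding list had 8 of 13 lower and 1 higher, and Eif4a1 fell by 1.61 ± 0.20, Eif4a2 by 1.05 ± 0.22 and Eif4g3 by 1.03 ± 0.18. The S6 kinase arm had 5 of 7 lower and 0 higher, and Larp1 fell by 1.19 ± 0.18, Poldip3 by 0.82 ± 0.17 and Rps6kb1 by 0.77 ± 0.17.

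In the same comparison the insulin and growth factor list had 7 of 14 lower and 1 higher, and Pik3r1 fell by 2.77 ± 0.30, Irs2 by 2.27 ± 0.54 and Akt1 by 2.25 ± 0.27. The AMP kinase list had 2 of 10 higher and 3 lower, and Prkag3 rose by 2.27 ± 0.47 and Prkag2 by 1.06 ± 0.30 while Prkab1 fell by 0.84 ± 0.16. Of the transcription factors 7 of 12 were lower and 1 higher, and Klf15 fell by 1.83 ± 0.42 and Foxo3 by 1.70 ± 0.31 while Foxo6 rose by 2.20 ± 0.35. With anti-PD-L1 against IgG, Kptn (0.91 ± 0.25) and Lamtor4 (0.61 ± 0.17) rose, and Insr fell by 0.83 ± 0.21, Atf4 by 0.74 ± 0.18 and Eif4enif1 by 0.52 ± 0.14.

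The genes whose log2 CPM was most like that of each of the 10 over the 15 libraries were found among 11457 genes, as a description that the group differences largely set. Eif4ebp1 was most like Keap1 (Pearson r = 0.989), Adrm1 and Zpr1. Sesn1 was most like Foxk1 (0.986), Lrrc58 and Kctd20, and Akt1s1 was most like Usp39 (0.982), Grpel1 and Bcl7b. Ddit4 was most like Pole (0.942), Plin4 and Cebpd, whereas Ddit4l was most like Sh3glb2 (0.966), Cops7b and Klhl8. Rragd was most like Ank1 (0.970), Gtf3c6 and Smad3, Deptor like Pkia (0.948), Lrp2bp and Lyrm7, and Sesn2 like Fbxo42 (0.958), Mafg and Atg2b. Sesn3 (Cdh13, 0.914, then Egln1 and Uhmk1) and Eif4ebp2 (Mdm1, 0.864, then Tbx1 and Ptpn23) had the lowest top values.

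Library totals were 15894822 to 22459370 counts. Mitochondrially encoded genes held 17.64% to 22.9998% of a library in controls and 12.8% to 16.7% with IgG. Their share was 11.1% to 14.4% with anti-PD-L1 and 20.2% to 23.1% with anti-CD8a. With those genes left out, IgG against control called 8 of the 10. That fit moved the median of all genes by only -0.0099, so the count does not bear on the part of the mitochondrial share. Markers of fibres and of other cell types also differed between groups. With anti-PD-L1 against IgG, 6 of 7 macrophage markers were higher and 0 lower. With anti-CD8a against IgG, 5 of 7 were higher and 1 lower. The 10 fibre markers summed to 89040 to 123600 CPM in controls, 73850 to 111700 with IgG, 61210 to 96140 with anti-PD-L1 and 97280 to 107900 with anti-CD8a. With IgG against control 4 of the 10 fell (Pvalb by 1.52 ± 0.35, Mb, Acta1 and Ckm) and Ttn rose by 0.70 ± 0.23, and with anti-CD8a against IgG Mb (1.31 ± 0.28) and Pvalb (1.26 ± 0.38) rose. The 5 fibroblast markers summed to 939 to 1302 CPM in controls, 493 to 685 with IgG, 1022 to 1285 with anti-PD-L1 and 715 to 835 with anti-CD8a, of which Dcn gave the largest part (628 ± 101 CPM in controls, 576 ± 83.5 with IgG). The collagen genes moved further: with IgG against control Col1a1 fell by 4.87 ± 0.53, Col1a2 by 3.82 ± 0.40 and Col3a1 by 5.03 ± 0.49 on the log2 scale, and with anti-CD8a against IgG they rose by 3.95 ± 0.53, 3.08 ± 0.41 and 3.75 ± 0.49.

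Of the 7 macrophage markers 6 fell and 1, Cd68, rose by 2.92 ± 0.51 with IgG against control, and their sums were 83.1 to 157 CPM in controls, 59.0 to 95.1 with IgG, 174 to 570 with anti-PD-L1 and 61.1 to 218 with anti-CD8a. The 5 T cell markers summed to 0.87 to 1.59 CPM in controls, 0.06 to 0.12 with IgG, 0.05 to 2.31 with anti-PD-L1 and 0.45 to 0.54 with anti-CD8a, and Cd3d was at 0 in every IgG and anti-CD8a library. Cd3e, the T cell marker that was tested, fell by 4.06 ± 0.85 with IgG against control, from 0.87 ± 0.33 to 0.05 ± 0.06 CPM. In an IgG library 3 counts stand for 0.16 to 0.19 CPM, and both the IgG level of Cd3e and the IgG sums lie below that. The 4 neutrophil markers summed to 0.35 to 3.74 CPM in controls, 2.73 to 8.61 with IgG, 10.9 to 48.4 with anti-PD-L1 and 2.62 to 7.97 with anti-CD8a, and S100a8 rose by 5.22 ± 0.69 with anti-PD-L1 against control. All 5 red blood cell markers rose with IgG against control (sums of 302 to 582 and 386 to 2677 CPM), and 3 of 4 Schwann markers fell (67.9 to 239 and 18.5 to 78.5 CPM). Adipocyte markers summed to 1.25 to 7.63 CPM in controls, 0.50 to 40.5 with IgG, 4.91 to 71.6 with anti-PD-L1 and 3.37 to 12.6 with anti-CD8a. With IgG against control 2 of 4 endothelial markers fell, and of 3 satellite cell markers Cdh15 rose and Pax7 fell. With anti-CD8a against control none of the tested markers was called. The part of these shifts in the results was not tested. In whole muscle, fewer cells of a type and less RNA per cell cannot be told apart.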

How the data were processed

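The authors deposited RSEM expected counts and TPM for 55416 genes in each of 15 libraries. Per the submitters' processing notes, Trim Galore, STAR 2.7.9a and RSEM 1.3.3 were used. The genome build, the annotation and the use of strand in counting are not given in the sources used here. The deposited mean transcript length per gene was used as a description. Expected counts were rounded and fitted over all 4 groups in edgeR 4.0.16 (R 4.3.3) with TMM normalisation, filterByExpr (14372 genes left), the quasi-likelihood test with 11 residual degrees of freedom, and p-values adjusted by Benjamini-Hochberg, with calls at an adjusted p under 0.05. Each SE was obtained from the size of the log2 fold change and its F (size over root F). Log2 CPM used a prior count of 2. The scripts were tested on simulated data. All 10 genes were named in every comparison, with up to 3 called genes of largest change per pathway list in IgG minus control and anti-CD8a minus IgG, any called pathway gene in anti-PD-L1 minus IgG, and the 3 most alike genes (mean CPM of at least 1). Eif4e, Lamtor1, Lamtor3, Lamtor5 and the single marker genes were named after their values were seen. The genes and lists were chosen with earlier results of these data known. Alternatives were DESeq2 1.42.0, other scalings and filters, the 2 groups alone, a replicate block, and libraries left out. Leaving out control libraries 2 and 3 together was added after their Ddit4 levels were seen.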

Additional observations from a re-analysis of the deposited data

Results flagged for a closer look

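Ddit4l in IgG replicate 2 stood at 65.2 CPM, apart from the other 3 IgG libraries, which lay between 21.9 and 28.1 CPM. The gap to the nearest was 0.858 of the whole range of the group, past the 95% critical value of Dixon's test. The check covered 20 combinations of a gene and a group of 4 or 5 libraries, and chance passes about 1 in 20 of them. This library too was below the lowest control, at 80.6 CPM.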

How the results depend on the processing

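Of 1010 log2 fold changes recomputed under the alternatives, 915 kept direction and side of the threshold, 41 lost the call, 29 gained one and 25 changed sign. IgG minus control called 8 to 9 of the 10 genes and anti-CD8a minus IgG 7 to 8 under every alternative run. The counts under alternatives are given without the share over all genes, so they do not separate these genes from the rest. Upper-quartile normalization moved the median of all genes by -0.25 (IgG minus control) and 0.23 (anti-CD8a minus IgG), and turned the sign of Eif4ebp2, which was not called in any comparison: -0.0569 in IgG minus control, 0.034 in anti-PD-L1 minus IgG, 0.0409 in anti-CD8a minus IgG, -0.0229 in anti-PD-L1 minus control, -0.016 in anti-CD8a minus control and -0.0069 in anti-PD-L1 minus anti-CD8a. The count in anti-PD-L1 minus IgG was 1 with DESeq2, 1 with no filter on low counts and 2 with both replicates 2 of IgG and anti-PD-L1 left out. The last setting gave 5 in anti-PD-L1 minus control and 3 in anti-PD-L1 minus anti-CD8a. With single libraries left out the counts ran from 0 to 1, from 4 to 8 and from 2 to 7 in these 3 comparisons. In anti-PD-L1 minus IgG, Sesn1 then ran from -0.9047 to 0.2947 and Rragd from -0.2601 to 0.0239. In anti-CD8a minus control, where differences were near 0, Eif4ebp1 ran from -0.1777 to 0.2241, Eif4ebp2 from -0.0498 to 0.0691, Sesn3 from -0.1959 to 0.2191 and Deptor from -0.0521 to 0.1356. There Eif4ebp2 was -0.0118 with no filter, -0.0093 with a mean CPM of at least 1 and -0.0118 in the fit of 2 groups. With control replicates 2 and 3 left out (chosen after seeing the data, on their Ddit4 levels) anti-CD8a minus control called 1, Ddit4, and gave -0.028 for Ddit4l, 0.04 for Sesn2 and 0.1559 for Sesn3, while IgG minus control called 8. Replicate numbers did not pair the libraries: of 19 same-numbered pairs 2 correlated best with their own number (r from -0.35 to 0.18). A replicate block gave 9, 0, 8, 6, 0 and 6 calls in the 6 comparisons, with Eif4ebp2 at -0.0372 and Deptor at -0.1887 in anti-CD8a minus control. The cause of these changes was not tested. Leaving out libraries changes both their number and which ones remain. With 3 to 5 libraries a group, and Sesn2 under 7 CPM in all of them, small differences are beyond these data.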
